A study of Mus musculus with 8 samples.

Results

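The nuclear genes for the respiratory chain of mitochondria were compared between YFP+ and YFP- stromal cells of the mouse small intestine. Members were the genes of the deposited count table whose names begin with Nduf, Uqc, Atp5 or Cox4 to Cox8, together with Sdha, Sdhb, Sdhc and Sdhd. Of 103 names that matched, 8 with the ending -ps and the isoforms Ndufa4l2 and Cox4i2 were left out, so that 93 of 53801 genes remained. They comprised 44 genes of complex I, 4 of complex II, 11 of complex III, 18 of complex IV and 16 of complex V, of which 13 are assembly factors or related proteins that share the name stem rather than subunits.

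The series holds 8 RNA libraries of cells negative for CD45, the leukocyte marker, and CD31, the endothelial marker. They were sorted by flow cytometry from LTβR-YFP mice, a reporter named for the lymphotoxin beta receptor, into a YFP+ and a YFP- fraction with 4 libraries each. Both fractions therefore come from mice with the reporter, and were separated by the YFP signal of the cells, which the labels list as the genotype. The sources used here do not state how YFP is driven, the age of the mice, or whether libraries came from separate animals. P-values therefore cover no more than the spread between these libraries, and that spread may be technical. The sample labels disagree with each other: for each of the 8 libraries the title names one fraction, while description and genotype name the other. YFP+ and YFP- below follow description and genotype, and every direction would be reversed under the titles.

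The respiratory chain passes electrons from NADH through complex I and from succinate through complex II to coenzyme Q, then through complex III and cytochrome c to complex IV, which reduces oxygen. Complexes I, III and IV pump protons across the inner mitochondrial membrane, and complex V, the ATP synthase, uses that gradient to make ATP. A few subunits at the catalytic heart of complexes I, III, IV and V are encoded in mitochondrial DNA, while all of complex II and most subunits of the others are nuclear genes.

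Totals ran from 23404630 to 29829232 counts in YFP+ libraries and from 23272858 to 28688906 counts in YFP- libraries. The cell label was checked with marker lists. Fibroblast markers, which include Col1a1 and Dcn, had summed levels of 37739 to 41636 CPM (counts scaled to library size) in YFP+ and 42397 to 49887 CPM in YFP-, and 2 of 8 tested fell in YFP+. Enteric glial markers summed to 9.20 to 12.1 CPM in YFP+ against 129 to 204 CPM in YFP-, and 10 of 11 fell. Epithelial markers summed to 20.2 to 28.9 CPM in YFP+ against 43.7 to 94.2 CPM in YFP-, and 5 of 12 fell. Smooth muscle markers summed to 606 to 1160 CPM in YFP+ against 390 to 692 CPM in YFP-, and 3 of 10 rose. Of 6 tested endothelial markers 1 fell, as did 1 of 4 enteric neuron markers, while 1 of 4 markers of interstitial cells of Cajal rose and 0 of 2 mesothelial markers passed in edgeR (1 at an unadjusted p under 0.05, 0 in DESeq2). The 4 markers of interstitial cells of Cajal were mixed: 2 had positive estimates, and log2 fold changes ran from -1.82 to 0.67. With the replicate number as a block in the edgeR fit, 9 of 10 smooth muscle markers rose, 5 fibroblast markers, 3 endothelial markers and 6 epithelial markers fell, and 1 fibroblast marker, the collagen VI gene Col6a1, rose (log2 fold change 0.26, edgeR adjusted p = 0.000134 with the block). Of 5 tested haematopoietic markers 0 passed in edgeR (0 also at an unadjusted p under 0.05, with the replicate block and in DESeq2), and Ptprc, which encodes CD45, stood at 2.29 CPM in YFP+ against 2.38 CPM in YFP-. The haematopoietic list as a whole summed to 39.2 to 321 CPM in YFP+ and 74.0 to 277 CPM in YFP-. Most of this sum came from markers other than Ptprc, and it varied widely between libraries. In bulk RNA, fewer cells of a type and less RNA per cell cannot be told apart, and the part of these marker differences in the results below was not tested.

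No respiratory chain member passed the test for a difference between the fractions. Of 93 members, 87 had enough counts to be tested by edgeR's quasi-likelihood test, and 0 were called higher or lower in YFP+ at an adjusted p under 0.05. Over all 16354 tested genes, 0.917% were called higher and 3.34% lower in YFP+, 4.26% in all. The smallest adjusted p among the members was 0.180, for Ndufa3. At an unadjusted p under 0.05, 10 members were higher and 1 was lower, beside a background of 5.59% of all tested genes higher and 9.53% lower. The count of called members was also 0 with the replicate number as a block (smallest edgeR adjusted p 0.0590, 16 members at an unadjusted p under 0.05) and in DESeq2 (11 members at an unadjusted p under 0.05), where 5.83% of all genes were called. With the block, the share called over all genes was 3.65% higher and 7.85% lower. The share of all genes at an unadjusted p under 0.05 was not counted with the block or in DESeq2. The unadjusted member counts of those fits therefore have no background beside them.

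The members' estimates were small and leaned to one side. The log2 fold change of YFP+ over YFP- was positive for 71 of 87 tested members (81.6%), compared with 50.6% of all tested genes, and its median was 0.12, compared with 0.00 for all tested genes. It ran from -0.69 for Cox7a1 to 0.57 for Atp5l, and only the estimate of Cox7a1 lay beyond 1.5-fold. The 4 YFP+ libraries lay above all 4 YFP- libraries for 7 members (Ndufa3, Ndufa10, Ndufb6, Ndufs8, Ndufv2, Ndufaf6 and Atp5a1), against a background of 3.78% of all tested genes, and below them for Ndufb2, against 5.86%. Between libraries with the same number, 16 members were higher in YFP+ in 4 of 4 pairs, where 14.0% of all genes were, and 3 were lower in 4 of 4 pairs, where 16.2% were.

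**Figure D1:**
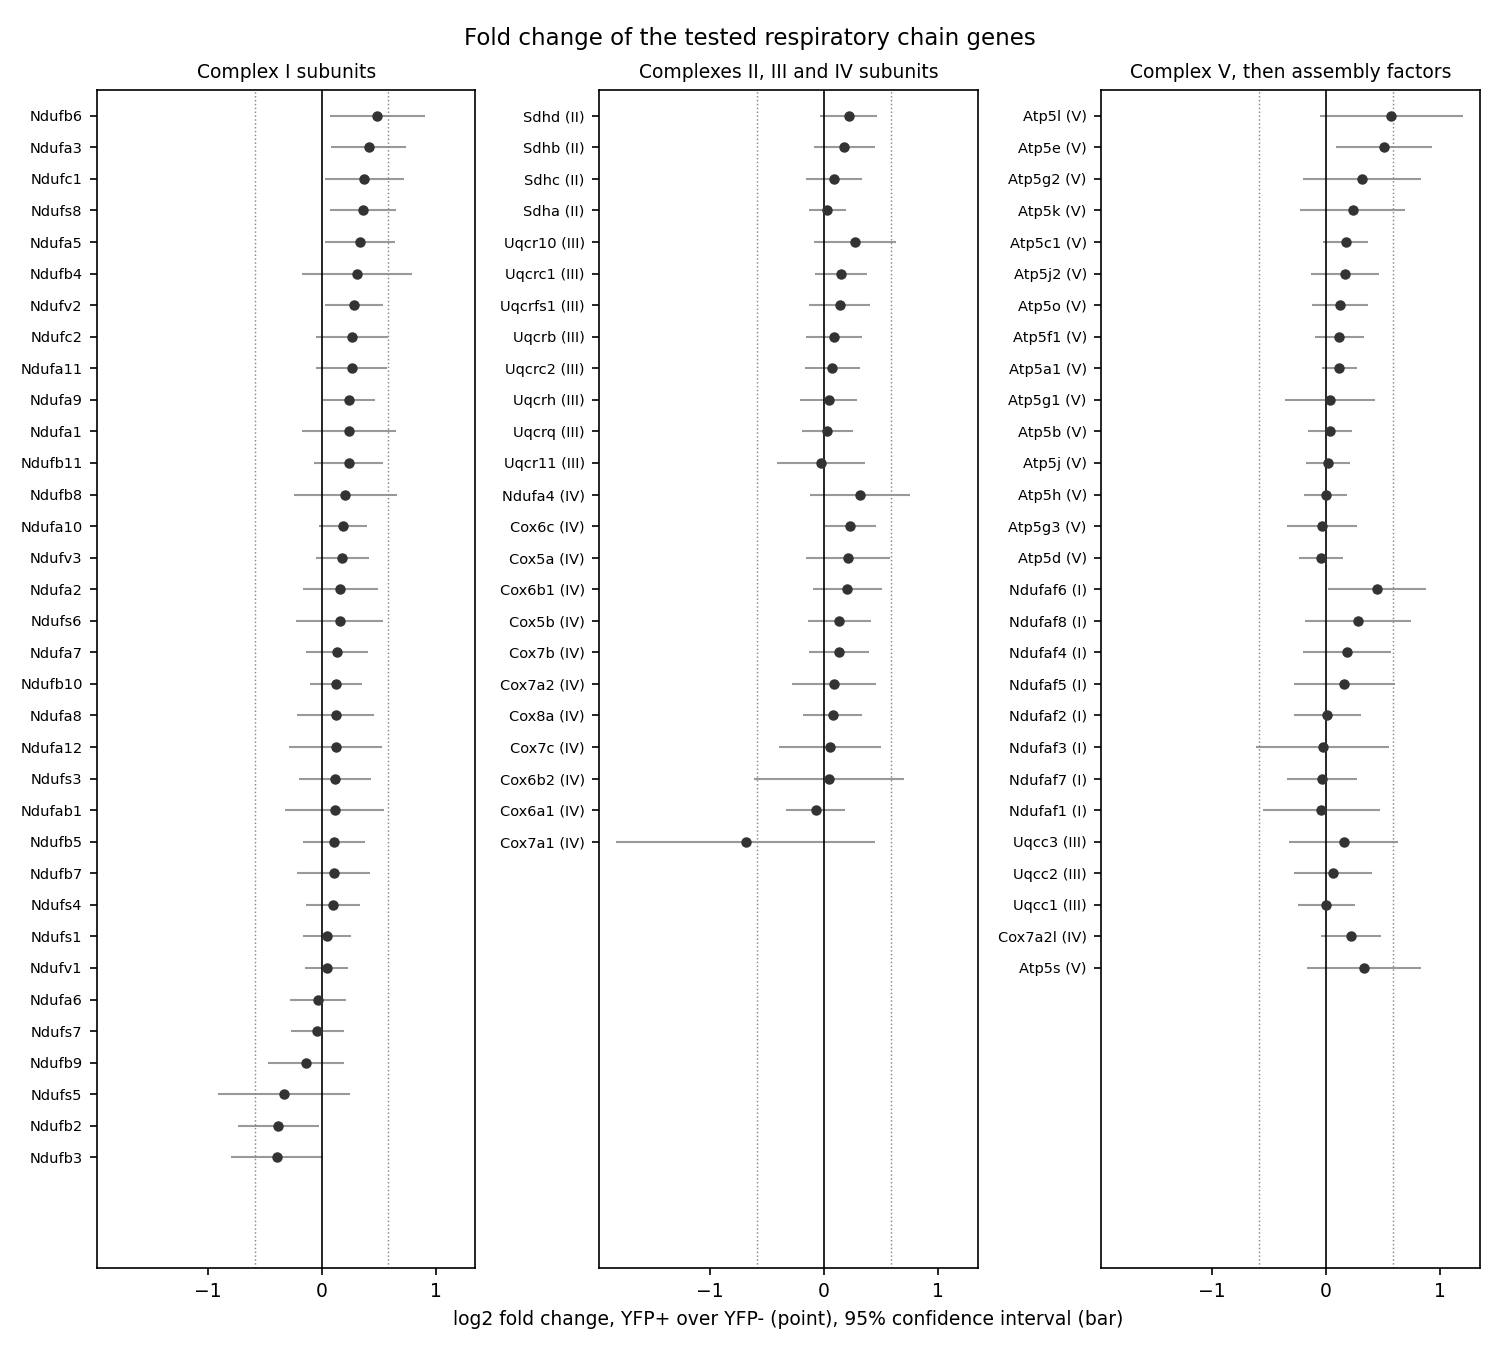
Log2 fold change of YFP+ over YFP- (horizontal axis) for tested members (rows), with the 95% confidence interval as a bar. The dotted lines mark a 1.5-fold difference; most points lie a little to the right of 0, and the interval of Cox7a1 is the widest.

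The size of most differences could be bounded in the fit without the replicate block. All SEs and 95% confidence intervals given here come from that fit. It leaves out the pairing of libraries by number that is described below. For 62 of 87 members the 95% confidence interval of the fold change stayed within 1.5-fold in both directions, and this held for all 33 tested members with a mean above 20 CPM. The SE of the log2 fold change was 0.073 for Atp5a1, which had 39080 counts over the 8 libraries, and 0.53 for Cox7a1, which had 218. Across the 87 tested members the rank correlation of SE with mean CPM was -0.97, a description over genes measured in the same libraries.

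**Figure D2:**
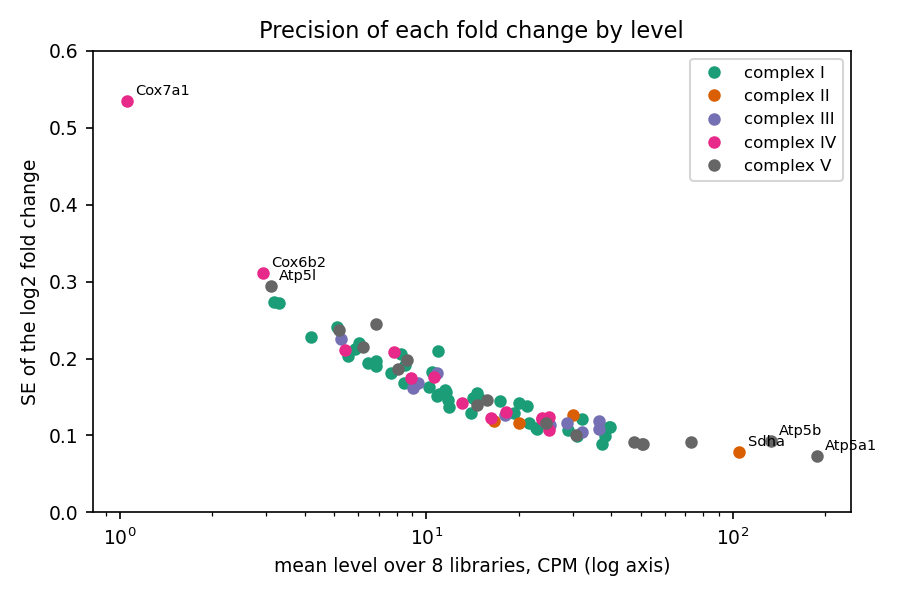
SE of the log2 fold change (vertical axis) against the mean level over 8 libraries in CPM (log axis), with a point for each tested member shown, coloured by complex. The SE falls with the level, and Cox7a1 (0.53) stands far above the other members.

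Summed over all members, the level was slightly higher in YFP+ and the fractions did not overlap. YFP+ libraries 1 to 4 held 2044, 2114, 2124 and 2066 CPM, and YFP- libraries 1 to 4 held 2028, 1934, 1950 and 1890 CPM. The means were 2087 ± 38.4 CPM in YFP+ against 1951 ± 57.5 CPM in YFP- (n = 4 each, ± SD), a log2 ratio of 0.10. As a share of raw counts, members took 0.213% ± 0.00637 in YFP+ and 0.191% ± 0.00659 in YFP- (n = 4 each, ± SD). The lowest YFP+ library was YFP+ replicate 1 at 2044 CPM, and the highest YFP- library, YFP- replicate 1, lay close under it at 2028 CPM.

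By complex, the summed level was 789 ± 11.6 CPM in YFP+ against 733 ± 20.8 CPM in YFP- for complex I, and 177 ± 7.64 CPM in YFP+ against 167 ± 11.6 CPM in YFP- for complex II (n = 4 each, ± SD). Complex III summed to 243 ± 5.70 CPM in YFP+ against 230.1 ± 6.22 CPM in YFP-. Complex IV summed to 191 ± 5.98 CPM in YFP+ against 174 ± 7.13 CPM in YFP-, and complex V to 686 ± 17.2 CPM in YFP+ against 646 ± 37.1 CPM in YFP-. The fractions did not overlap for complexes I, III and IV and did overlap for complexes II and V. The median log2 fold change was 0.13 for complex I (33 of 43 tested members positive), 0.13 for complex II (4 of 4), 0.08 for complex III (10 of 11), 0.13 for complex IV (11 of 13) and 0.12 for complex V (13 of 16).

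**Figure D3:**
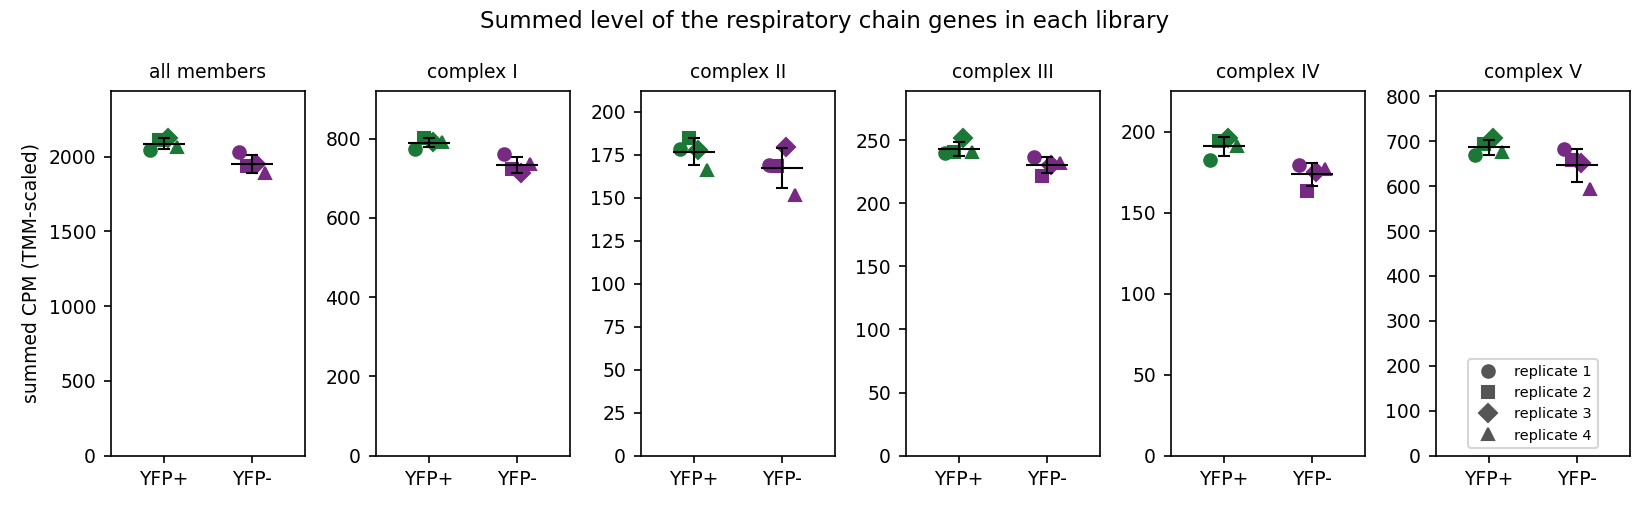
Summed TMM-scaled CPM in each library (points; shape gives the replicate number), for all 93 members and for each complex, YFP+ on the left and YFP- on the right of each panel. Horizontal lines are means and bars are 1 SD (n = 4). The fractions are apart for all members (2044 to 2124 CPM in YFP+, 1890 to 2028 CPM in YFP-) and overlap for complexes II and V.

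Promoters of these genes are known for sites of NRF1, of the ETS factor GABPA and of YY1, regulators of nuclear genes for mitochondria. RefSeq promoter windows on GRCm38.p6, from 250 bases before to 50 after each start, matched 77 of the 93 members with 82 windows. The NRF1 motif, GCGCA and GCGC with any base (N) between them, searched on both strands as were the others, was in 25.6% of member windows and 4.60% of all 32851 windows. The ETS motif CCGGAAG was in 22.0% of member windows and 8.86% of all, and the YY1 motif AAGATGGCG in 9.76% of member windows and 1.40% of all; the motifs were counted separately, whether or not matches overlapped. Stretches of 60 bases could be shown only for named genes whose window held a match before the start. The smallest-p subunits Ndufa3, Uqcr10 and Cox6c and the abundant subunits Uqcrb and Cox8a had no match there or no window. Shown are a complex II subunit with the smallest p of its complex (Sdhd), its most abundant partner (Sdha), the complex V subunit with the smallest p (Atp5e) and the tested Cox6a isoform (Cox6a1). Each is printed on the gene's strand, 5′ to 3′, with motif matches in capitals. CTTCCGG is the ETS motif read on the other strand, and the first 4 capitals of the Sdhd stretch are the end of an NRF1 match.
Sdhd (chr9:50603863-50603922, minus strand): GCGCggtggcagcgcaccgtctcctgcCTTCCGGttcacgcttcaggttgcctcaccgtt
Sdha (chr13:74350262-74350321, minus strand): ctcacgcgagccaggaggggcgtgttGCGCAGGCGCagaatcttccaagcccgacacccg
Atp5e (chr2:174464171-174464230, minus strand): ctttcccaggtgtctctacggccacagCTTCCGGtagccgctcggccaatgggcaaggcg
Cox6a1 (chr5:115349087-115349146, minus strand): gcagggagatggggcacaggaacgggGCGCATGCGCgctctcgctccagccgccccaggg
The 20 tested members with an NRF1 match had a median log2 fold change of 0.15, and the 54 without one 0.13. For the ETS motif the medians were 0.15 with a match (18 members) and 0.13 without (56 members), and for YY1 0.16 with a match (8 members) and 0.13 without (66 members). A match describes the letters in the window only.

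In complex I, the core subunits that carry the electron path had a lower median log2 fold change than the accessory subunits and the assembly factors. Single core subunits did differ more: 2 of 7 were higher in YFP+ without overlap, where 3.78% of all tested genes were. The 7 nuclear core subunits summed to 271 ± 4.63 CPM in YFP+ against 263 ± 14.5 CPM in YFP- (n = 4 each, ± SD), with overlapping fractions and a median log2 fold change of 0.05.

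The core subunits Ndufv1, which binds NADH, and Ndufs1, the largest iron-sulfur subunit, had log2 fold changes of 0.04 (95% confidence interval -0.15 to 0.23) and 0.05 (95% confidence interval -0.16 to 0.26). Ndufs8, an iron-sulfur core subunit, stood at 12.7, 13.0, 13.1 and 14.5 CPM in YFP+ libraries, against 9.59, 10.9, 11.1 and 9.90 CPM in YFP- libraries. Every YFP+ library lay above every YFP- library, yet the log2 fold change of 0.36 (SE 0.14) did not pass (edgeR adjusted p = 0.189). Ndufv2, another iron-sulfur core subunit, had 33.6, 41.9, 34.3 and 32.2 CPM in YFP+ libraries, against 31.1, 30.8, 23.2 and 31.4 CPM in YFP- libraries. Its groups also stood apart, narrowly between YFP+ replicate 4 and YFP- replicate 4, with 0.28 as the log2 fold change (SE 0.12, edgeR adjusted p = 0.269).

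The accessory subunits, which surround the core and are needed for its assembly and stability, held most of the difference in the summed level of complex I. The 28 tested summed to 441 ± 12.1 CPM in YFP+ against 398 ± 13.3 CPM in YFP- (n = 4 each, ± SD), did not overlap between fractions, and had a median log2 fold change of 0.16, with 23 positive. Ndufa3, a small membrane subunit, had the smallest p of the complex. Its levels were 11.6, 11.8, 14.2 and 12.6 CPM in YFP+ libraries 1 to 4, against 10.8, 9.38, 9.71 and 7.80 CPM in YFP- libraries 1 to 4. All YFP+ libraries were higher, and the log2 fold change was 0.41 (SE 0.15, 95% confidence interval 0.09 to 0.74, edgeR adjusted p = 0.180, and 0.0784 with the replicate block). Ndufa3 (ENSMUSG00000035674) maps to the plus strand of chromosome 7 (3617373 to 3620327) of GRCm38.

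Ndufb6, an accessory subunit of the membrane arm, had the highest estimate of complex I. It stood at 8.23, 8.64, 7.50 and 7.52 CPM in YFP+ libraries, against 7.34, 4.86, 4.62 and 5.91 CPM in YFP- libraries, without overlap. The log2 fold change was 0.49 (SE 0.20, edgeR adjusted p = 0.228). This count is uncertain, since 39.0% of the Ndufb6 exons overlap Smim27 on the opposite strand and the sources used here do not give the strand setting of the counting. Ndufc1, another membrane-arm subunit, averaged 11.5 ± 1.51 CPM in YFP+ against 8.89 ± 1.18 CPM in YFP- (n = 4 each, ± SD), or 0.37 as a log2 fold change (edgeR adjusted p = 0.284). Ndufa5, of the arm that faces the matrix, averaged 19.3 ± 1.26 CPM in YFP+ against 15.3 ± 3.15 CPM in YFP-, with overlapping fractions and a fold change of 0.34 on the log2 scale (edgeR adjusted p = 0.275).

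Not all accessory subunits leaned the same way. Ndufb2, of the membrane arm, stood at 7.15, 7.77, 6.45 and 7.94 CPM in YFP+ libraries, against 8.66, 9.25, 11.3 and 8.99 CPM in YFP- libraries. Here every YFP+ library was lower, with -0.38 as the log2 fold change (SE 0.17, edgeR adjusted p = 0.282). Ndufb3, of the same arm, averaged 5.90 ± 0.598 CPM in YFP+ against 7.77 ± 1.25 CPM in YFP- (n = 4 each, ± SD), or -0.40 as a log2 fold change (edgeR adjusted p = 0.343). Ndufs5 had a log2 fold change of -0.33, and 21.7% of its 50-base words also occur in other genes, so its counts are uncertain. In 4 of 4 pairs of libraries with the same number, these 3 subunits were lower in YFP+, and no other member was. Ndufa13 was listed at 0 in all 8 libraries, as were the ribosomal protein genes Rpl13 and Rpl24, which all cells use, so a listed 0 in this table need not mean that a gene was not expressed.

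The 8 complex I assembly factors named Ndufaf summed to 76.8 ± 4.41 CPM in YFP+ against 71.7 ± 0.977 CPM in YFP- (n = 4 each, ± SD), with a median log2 fold change of 0.09 and 5 positive. Ndufaf6 was the only one with groups that did not overlap, at 7.26, 6.87, 5.57 and 6.0 CPM in YFP+ libraries and 4.33, 4.86, 5.44 and 4.17 CPM in YFP- libraries. Its log2 fold change was 0.45 (SE 0.20, edgeR adjusted p = 0.302). Of 9 tested complex I assembly factors with other names, 0 were called in edgeR (0 also at an unadjusted p under 0.05, with the replicate block and in DESeq2), and their median was 0.09. The most abundant by CPM, Aifm1, a flavoprotein needed for complex I biogenesis, averaged 23.3 ± 1.67 CPM in YFP+ against 20.4 ± 1.33 CPM in YFP- (log2 fold change 0.19, edgeR adjusted p = 0.437).

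Complex II, succinate dehydrogenase, also belongs to the citric acid cycle, and none of its 4 subunits passed. Sdha, the flavoprotein that oxidises succinate, was the most abundant per length and the flattest. It stood at 105, 114, 107 and 98.6 CPM in YFP+ libraries 1 to 4, against 107, 106, 107 and 96.2 CPM in YFP- libraries 1 to 4. Its log2 fold change was 0.03 (SE 0.08, 95% confidence interval -0.13 to 0.20, edgeR adjusted p = 0.909), so a difference of 1.5-fold lay outside the interval. Sdha (ENSMUSG00000021577) maps to the minus strand of chromosome 13 (74322254 to 74350280).

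Sdhb, the iron-sulfur subunit, stood at 32.6, 34.4, 30.8 and 30.4 CPM in YFP+ libraries, against 28.9, 27.5, 35.0 and 21.9 CPM in YFP- libraries. The fractions overlapped through YFP- replicate 3, and the log2 fold change was 0.18 (SE 0.13, edgeR adjusted p = 0.564). Sdhc and Sdhd anchor the enzyme in the membrane. Sdhc stood at 23.3, 19.5, 21.4 and 18.5 CPM in YFP+ libraries, against 18.9, 20.4, 20.7 and 17.9 CPM in YFP- libraries, or 0.09 as a log2 fold change (SE 0.12, edgeR adjusted p = 0.787). Sdhd had the smallest p of the complex, with 17.6, 16.4, 18.7 and 18.9 CPM in YFP+ libraries and 14.2, 15, 16.7 and 15.6 CPM in YFP- libraries. The fractions overlapped through YFP+ replicate 2 and YFP- replicate 3, and the log2 fold change was 0.22 (SE 0.12, edgeR adjusted p = 0.421). Sdhd (ENSMUSG00000000171) maps to the minus strand of chromosome 9 (50596357 to 50603812). Of 4 complex II assembly factors outside the name rule, 0 were called in edgeR (0 also at an unadjusted p under 0.05, with the block and in DESeq2), with a median of 0.08.

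In complex III, the 8 nuclear subunits that share the name stem summed to 204 ± 6.71 CPM in YFP+ against 192 ± 7.18 CPM in YFP- (n = 4 each, ± SD), and the fractions overlapped. Uqcr10, a small subunit, had the smallest p. It stood at 10.1, 12.4, 9.04 and 9.53 CPM in YFP+ libraries 1 to 4, against 9.10, 7.62, 9.71 and 7.54 CPM in YFP- libraries 1 to 4. The fractions overlapped, and the log2 fold change was 0.27 (SE 0.17, edgeR adjusted p = 0.493). Uqcr10 (ENSMUSG00000059534) maps to the minus strand of chromosome 11 (4701973 to 4704342).

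Uqcrb, which binds coenzyme Q, was the most abundant subunit of complex III per exon length. Its levels were 29.6, 31.1, 31.2 and 26.7 CPM in YFP+ libraries, against 27.4, 29.5, 31.9 and 22.8 CPM in YFP- libraries, or 0.09 as a log2 fold change (SE 0.12, edgeR adjusted p = 0.788). Of its 50-base words 25.4% also occur in other genes, so its count is uncertain. Uqcrb (ENSMUSG00000021520) maps to the minus strand of chromosome 13 (66900617 to 66905378). The large core proteins Uqcrc1 and Uqcrc2 had log2 fold changes of 0.15 (95% confidence interval -0.08 to 0.38) and 0.08 (95% confidence interval -0.17 to 0.32). The count of Uqcrc2 is uncertain, since 19.75% of its exons overlap Pdzd9 on the opposite strand. Uqcrfs1, the Rieske iron-sulfur protein, had 0.14 (95% confidence interval -0.13 to 0.41).

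The 3 assembly factors Uqcc1, Uqcc2 and Uqcc3 had log2 fold changes of 0.00, 0.06 and 0.15. Cyc1, the cytochrome c1 subunit, whose name falls outside the rule, averaged 15.8 CPM in YFP+ against 13.6 CPM in YFP- (log2 fold change 0.22, edgeR adjusted p = 0.506). Of the 4 complex III genes outside the rule, 0 were called in edgeR (0 also at an unadjusted p under 0.05, with the block and in DESeq2), and their median was -0.03. Ttc19, a complex III assembly factor and the most abundant of them by CPM, averaged 47.6 ± 3.21 CPM in YFP+ against 49.9 ± 3.26 CPM in YFP- (n = 4 each, ± SD).

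Complex IV, cytochrome c oxidase, was the complex with most members that could not be tested. Cox4i1 (chromosome 8, 120668222 to 120674207), Cox6a2 and Cox8c were listed at 0 in all 8 libraries, Cox8b had 1 count in all, and Cox7b2 had 20 counts, 13 of them in YFP- replicate 3. Of the 13 tested, 0 passed, and 11 had positive estimates. Cox6c had the smallest p, at 24.0, 29.2, 27.2 and 28.5 CPM in YFP+ libraries 1 to 4, against 21.2, 23.2, 24.8 and 23.5 CPM in YFP- libraries 1 to 4. It was higher in YFP+ in 4 of 4 same-numbered pairs although the fractions overlapped, with 0.23 as the log2 fold change (SE 0.11, 95% confidence interval 0.01 to 0.46, edgeR adjusted p = 0.312). Cox6c (ENSMUSG00000014313) maps to the minus strand of chromosome 15 (35925886 to 35938246).

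Several complex IV subunits have isoforms that tissues use differently. On a scale per exon length (TPM, computed from exon-union length), the widely expressed isoform had the higher level in both fractions for Cox6b and Cox7a, while the other isoforms of Cox6a and Cox8 were listed at 0 or had 1 count, with the same doubt about a listed 0. Cox8a, the widely expressed Cox8 isoform, was the most abundant complex IV subunit at 57.0 ± 6.59 TPM in YFP+ against 55.4 ± 10.3 TPM in YFP- (n = 4 each, ± SD), while Cox8b had 1 count and Cox8c was listed at 0. Cox8a stood at 21.5, 27.1, 26.0 and 23.3 CPM in YFP+ libraries and 23.2, 19.3, 26.5 and 23.7 CPM in YFP- libraries, or 0.08 as a log2 fold change (SE 0.12, edgeR adjusted p = 0.828). It (ENSMUSG00000035885) maps to the minus strand of chromosome 19 (7215153 to 7217616).

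Cox6a1, the widely expressed Cox6a isoform, averaged 32.5 ± 2.79 TPM in YFP+ against 34.9 ± 1.86 TPM in YFP- (n = 4 each, ± SD), with -0.07 as the log2 fold change (95% confidence interval -0.33 to 0.19), while the heart and muscle isoform Cox6a2 was listed at 0. Cox6b1 averaged 28.5 ± 3.62 TPM in YFP+ against 25.4 ± 4.10 TPM in YFP- (log2 fold change 0.21, 95% confidence interval -0.10 to 0.51). Its testis-rich isoform Cox6b2 averaged 3.88 ± 0.834 TPM in YFP+ against 3.75 ± 1.07 TPM in YFP- (log2 fold change 0.04). Cox7a2 averaged 16.6 ± 2.10 TPM in YFP+ against 15.9 ± 3.38 TPM in YFP- (log2 fold change 0.09). The heart and muscle isoform Cox7a1 averaged 2.20 ± 1.11 TPM in YFP+ against 3.56 ± 1.73 TPM in YFP-, with overlapping fractions and a log2 fold change of -0.69 whose 95% confidence interval ran from -1.82 to 0.45. Cox7b averaged 29.8 ± 5.07 TPM in YFP+ against 27.5 ± 0.633 TPM in YFP- (log2 fold change 0.13).

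Cox7a2l, a factor that joins complexes III and IV into supercomplexes, stood at 27.6, 24.9, 27.4 and 28.0 CPM in YFP+ libraries, against 19.3, 21, 28.6 and 24.0 CPM in YFP- libraries. YFP- replicate 3 was the highest library of all 8, and the log2 fold change was 0.22 (SE 0.12, edgeR adjusted p = 0.451). Ndufa4, which carries a complex I name but is a subunit of complex IV, averaged 8.71 ± 1.37 CPM in YFP+ against 6.99 ± 1.83 CPM in YFP- (n = 4 each, ± SD), or 0.32 as a log2 fold change (edgeR adjusted p = 0.525). Ndufa4l2, its hypoxia-responsive relative left out by the rule, had only 11 to 30 counts per library and a log2 fold change of 0.02.

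Of 20 tested complex IV assembly factors outside the rule, 0 were called in edgeR (2 at an unadjusted p under 0.05, 1 adjusted in DESeq2), 16 were positive and the median was 0.10. With the replicate block 1 passed, Cox14, which was also the gene called by DESeq2. It is a factor for the synthesis of the Cox1 subunit and averaged 10.7 CPM in YFP+ against 7.30 CPM in YFP-, or 0.55 as a log2 fold change, with an edgeR adjusted p of 0.0737 without the block and 0.0315 with it. In DESeq2 its adjusted p was 0.0264 without the block and 0.0586 with it, so the call was lost there. Lrpprc, which stabilises mitochondrial mRNA, averaged 38.6 ± 3.89 CPM in YFP+ against 38.5 ± 3.15 CPM in YFP- (n = 4 each, ± SD). Its log2 fold change was 0.00.

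Complex V is built of the F1 head that makes ATP, the stalks and the proton channel Fo. Atp5a1, the alpha subunit of the head, was the most abundant member per exon length, at 89.9 ± 7.35 TPM in YFP+ against 84.9 ± 9.23 TPM in YFP- (n = 4 each, ± SD). It stood at 192, 199, 202 and 189 CPM in YFP+ libraries 1 to 4, against 186, 182, 184 and 170 CPM in YFP- libraries 1 to 4. The fractions stood narrowly apart, with YFP+ replicate 4 next to YFP- replicate 1, and the log2 fold change was 0.12 (SE 0.07, 95% confidence interval -0.04 to 0.27, edgeR adjusted p = 0.498). The catalytic beta subunit Atp5b averaged 135 ± 7.63 CPM in YFP+ against 131 ± 16.0 CPM in YFP- (log2 fold change 0.03, 95% confidence interval -0.16 to 0.23). The gamma subunit Atp5c1, which turns inside the head, had a log2 fold change of 0.17 (95% confidence interval -0.02 to 0.37).

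Atp5e, the epsilon subunit of the head, had the smallest p of complex V and the smallest of all members with the replicate block. Its levels were 8.72, 11.1, 11.7 and 9.29 CPM in YFP+ libraries, against 8.40, 9.0, 5.70 and 5.51 CPM in YFP- libraries. The YFP+ libraries were higher in 4 of 4 same-numbered pairs, and the overlap came from YFP+ replicate 1 and YFP- replicate 2. The log2 fold change was 0.51 (SE 0.20, 95% confidence interval 0.09 to 0.93), with an edgeR adjusted p of 0.205, and 0.0590 with the block. Atp5e (ENSMUSG00000016252) maps to the minus strand of chromosome 2 (174461072 to 174464105), and in the authors' deposited table it had the lowest adjusted p of the members, 0.118.

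The 10 genes of the stalk and of Fo summed to 217 ± 3.35 CPM in YFP+ against 206 ± 12.7 CPM in YFP- (n = 4 each, ± SD) and overlapped between fractions. Atp5g1, Atp5g2 and Atp5g3 encode the same mature c subunit of the proton channel. On the TPM scale Atp5g3 averaged 10.3 ± 1.49 in YFP+ and 10.7 ± 1.08 in YFP-, Atp5g2 6.48 ± 1.32 in YFP+ and 5.25 ± 1.13 in YFP-, and Atp5g1 2.41 ± 0.593 in YFP+ and 2.37 ± 0.152 in YFP-. The order of the 3 genes was thus alike in both fractions, and their log2 fold changes were -0.03, 0.32 and 0.04, none past the test. Of the 50-base words of Atp5g2, 36.7% also occur in other genes, so its counts are uncertain. Atp5l, of the membrane part, had the highest estimate of all members at a low level, with 3.71 ± 0.443 CPM in YFP+ against 2.50 ± 0.822 CPM in YFP- (log2 fold change 0.57, 95% confidence interval -0.05 to 1.2, edgeR adjusted p = 0.385).

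Of 5 complex V assembly factors and inhibitors outside the rule, 0 were called in edgeR (1 at an unadjusted p under 0.05, 0 with the block and 0 in DESeq2), all 5 were positive, and the median was 0.16. The most abundant by CPM, Atpif1, the inhibitor of ATP hydrolysis, averaged 53.8 ± 2.10 CPM in YFP+ against 46.6 ± 1.65 CPM in YFP- (n = 4 each, ± SD), or 0.21 as a log2 fold change (edgeR adjusted p = 0.218).

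**Figure D4:**
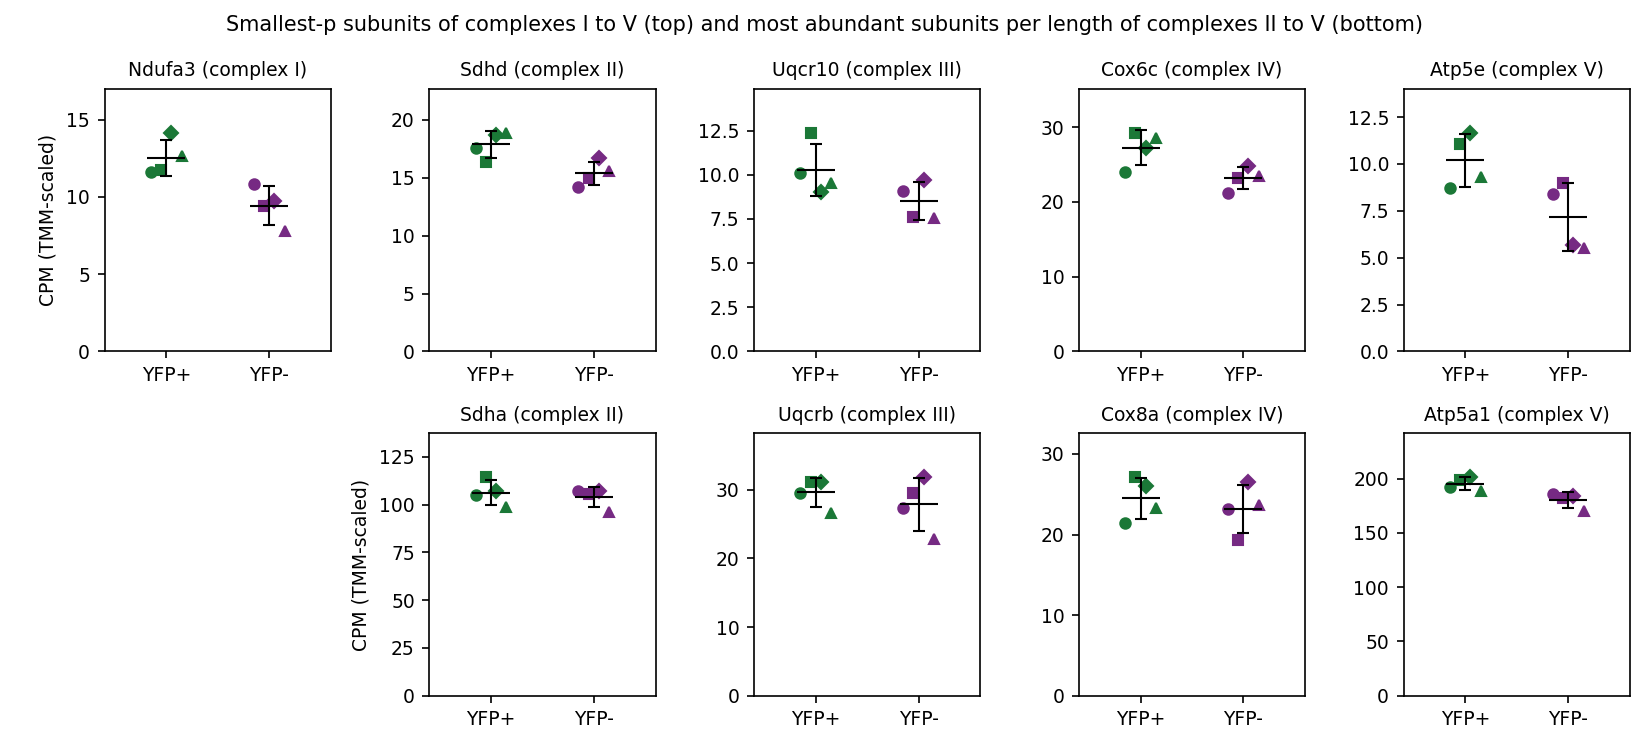
TMM-scaled CPM in each library (points; circle, square, diamond and triangle are replicates 1 to 4), YFP+ left and YFP- right, for the subunit with the smallest p of complexes I to V (top) and the most abundant subunit per exon length of complexes II to V (bottom). Horizontal lines are means and bars are 1 SD (n = 4). Ndufa3 and Atp5a1 show no overlap between fractions, and Sdha lies at nearly the same level in both.

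Levels per length depended on the gene model used. With the longest coding transcript as the length, the most abundant subunit would be Uqcrh in place of Uqcrb for complex III and Atp5h in place of Atp5a1 for complex V, and remained Sdha for complex II and Cox8a for complex IV.

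Subunits encoded in mitochondrial DNA, where they could be tested, were lower in YFP+, while no nuclear member passed the same edgeR test. Of 13 such genes 7 could be tested, and all 7 fell in YFP+ (edgeR, adjusted p under 0.05; also 7 of 7 with the block). The log2 fold changes were -0.61 for mt-Nd1, -0.51 for mt-Nd2, -0.62 for mt-Nd4, -0.64 for mt-Nd5, -0.63 for mt-Nd6, -0.53 for mt-Cytb and -0.59 for mt-Co1. Their median was -0.61, compared with 0.12 for the nuclear members. mt-Co1, the catalytic subunit of complex IV, averaged 849 ± 63.4 CPM in YFP+ against 1281 ± 128 CPM in YFP- (n = 4 each, ± SD, edgeR adjusted p = 0.000909). mt-Nd5, a proton-pumping subunit of complex I, averaged 518 ± 40.4 CPM in YFP+ against 805 ± 58.0 CPM in YFP- (edgeR adjusted p = 0.000315). The other 6 had no or few counts: mt-Co2, mt-Co3, mt-Atp6, mt-Atp8 and mt-Nd4l were listed at 0, and mt-Nd3 had at most 3 counts in a library. Why they are at 0 was not tested.

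As a share of raw counts, mitochondrially encoded subunits took 0.362% ± 0.0316 in YFP+ and 0.519% ± 0.0553 in YFP- (n = 4 each, ± SD). There were 0.606, 0.666, 0.548 and 0.546 nuclear member counts per mitochondrially encoded subunit count in YFP+ libraries 1 to 4, against 0.451, 0.363, 0.349 and 0.325 in YFP- libraries 1 to 4. The fractions did not overlap in this ratio. The shares and the ratio cover only the mitochondrially encoded genes with counts, so their level would differ if the genes listed at 0 had been counted. Mitochondrial and ribosomal RNA genes together took 6.41% to 7.07% of counts in YFP+ libraries and 7.90% to 9.62% in YFP- libraries, and glial and epithelial markers were lower in YFP+ as given above. The part of these values in the lower mitochondrial RNA was not tested. With mitochondrial and ribosomal RNA genes removed before scaling, 0 nuclear members were called in edgeR and 72 of 87 were positive.

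**Figure D5:**
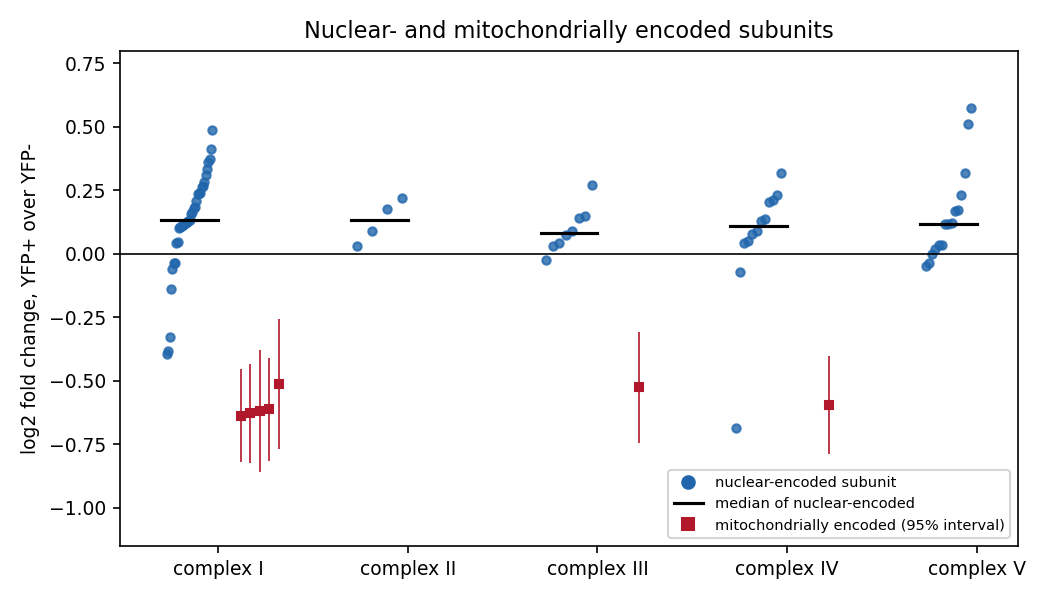
Log2 fold change of YFP+ over YFP- for nuclear-encoded subunits (circles, with their median as a line) and mitochondrially encoded subunits (squares, with 95% confidence intervals) of each complex. All 7 tested mitochondrially encoded subunits lie between -0.64 and -0.51, below every nuclear-encoded subunit except Cox7a1 (-0.69).

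Among the carriers, the coenzyme Q genes and the regulators of biogenesis, edgeR called none without the replicate block and 3 with it. Of 7 tested genes for the mobile carrier cytochrome c, the ADP/ATP carriers and the outer membrane channels, 0 were called in edgeR (1 at an unadjusted p under 0.05, 0 adjusted in DESeq2), with a median of 0.10. Slc25a4, an ADP/ATP carrier, averaged 118 ± 9.89 CPM in YFP+ against 110 ± 6.07 CPM in YFP- (n = 4 each, ± SD). Vdac2, an outer membrane channel, passed in edgeR with the replicate block, at 28.4 CPM in YFP+ against 22.7 CPM in YFP- (log2 fold change 0.32, edgeR adjusted p = 0.114 without the block and 0.0463 with it). It did not pass in DESeq2 with the block (adjusted p = 0.0824).

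Of 13 genes of coenzyme Q synthesis, 0 were called in edgeR (2 at an unadjusted p under 0.05, 0 adjusted in DESeq2), with a median of -0.03. Coq8b, an ATPase-like kinase of the pathway, passed in edgeR with the block, at 76.8 ± 9.55 CPM in YFP+ against 99.3 ± 19.6 CPM in YFP- (log2 fold change -0.37, edgeR adjusted p = 0.151 without the block and 0.00143 with it, DESeq2 adjusted p = 0.00198 with it). Of 18 regulators of mitochondrial biogenesis and mitochondrial DNA upkeep, 0 were called in edgeR (2 at an unadjusted p under 0.05, 0 adjusted in DESeq2), 7 were positive and the median was -0.08, with estimates from -0.61 to 0.46. Polg2, the accessory subunit of the mitochondrial DNA polymerase, passed in edgeR with the block, at 37.6 CPM in YFP+ against 48.0 CPM in YFP- (log2 fold change -0.35, edgeR adjusted p = 0.274 without the block and 0.00598 with it, DESeq2 adjusted p = 0.0115 with it). Among the factors whose motifs were searched, Nrf1 averaged 61.1 CPM in YFP+ against 66.3 CPM in YFP- (log2 fold change -0.12, edgeR adjusted p = 0.590). Gabpa averaged 71.5 CPM in YFP+ against 69.6 CPM in YFP-, and Yy1 114 ± 12.3 CPM in YFP+ against 118 ± 15.5 CPM in YFP- (n = 4 each, ± SD), with log2 fold changes of 0.04 and -0.04. Ppargc1a, the coactivator of mitochondrial biogenesis, averaged 7.74 CPM in YFP+ against 10 CPM in YFP- (log2 fold change -0.37, edgeR adjusted p = 0.542).

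In the authors' deposited table, 0 of the 87 members with an adjusted p were under 0.05, where 9.36% of all genes with an adjusted p were. Its log2 fold change of YFP+ over YFP- was positive for 73 of those 87 members in the authors' deposited table. The deposited values lay near those of DESeq2 with the replicate block. The authors called 1754 genes, where DESeq2 called 1236 lower and 518 higher with the block and 1094 without it. For Atp5e the authors gave 0.54 (adjusted p 0.118). DESeq2 gave 0.54 (adjusted p 0.119) with the block and 0.52 (adjusted p 0.157) without it.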

How the data were processed

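Per the labels' protocols, a stranded total RNA kit for low inputs was used, with sequencing on the Illumina NextSeq platform. The submitters' processing notes name cutadapt 3.4, STAR 2.7.3a, featureCounts 2.0.1, DESeq2 and GRCm38. The authors deposited raw counts per gene and library, and, in the same deposited table, log2 fold changes and adjusted p-values of YFP+ over YFP-. Of 53801 genes, 23010 had no count. The deposited counts were tested with edgeR 4.0.16 (R 4.3.3): filterByExpr, TMM scaling, robust quasi-likelihood F test, Benjamini-Hochberg adjustment over 16354 genes, threshold 0.05. CPM use TMM-scaled totals. The SE is the absolute log2 fold change over the square root of F. TPM-like levels divide deposited counts by exon-union length from GENCODE mouse release 21 (GRCm38), which held 53706 of the identifiers. The script was tested on simulated data.

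Members and lists were chosen with earlier results of these data known. Named by rule were the smallest-p and most abundant subunit of each complex, all complex II subunits, isoform sets, and from each pathway list up to 2 called genes per direction or the most abundant; other genes were named after their values were seen, and 1 gene that the rule took is not reported here. Exons of 31 members overlap another gene, over more than 15% of their length in 6, and 8 members share more than 15% of their 50-base words with other genes.

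Deviations from group means, over 5200 genes whose mean log2 CPM exceeded 5, correlated at 0.38 to 0.64 between libraries of the same number and at -0.42 to 0.05 otherwise. The numbers were therefore taken to pair libraries, from these correlations rather than from the labels. Over the 16 members among these genes the pairing was less clear. There the correlations ran from -0.00058 (number 3) to 0.67 for the same number and from -0.65 to 0.30 otherwise. Alternatives were RLE and upper-quartile scaling, no filter, DESeq2 1.42.0, the replicate block, a fit without 223 mitochondrial and rRNA genes, and fits without each library; combinations with the block were added once the data had been seen.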

Additional observations from a re-analysis of the deposited data

Results flagged for a closer look

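In 62 sets of 4 values (named genes, summed levels and totals in each fraction), 4 had 1 library far from the other 3 by Dixon's criterion, where chance alone flags about 1 set in 20, or 3.1. Atp5g1 was high in YFP+ replicate 1 at 10.5 CPM, against 7.53 CPM in the next library. Sdha was low in YFP- replicate 4 at 96.2 CPM, where the next library had 106 CPM. The summed level of complex III was high in YFP+ replicate 3 at 252 CPM, where the next had 240.4 CPM. The total count was high in YFP- replicate 4 at 28688906, where the next had 23894251.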

How the results depend on the processing

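No member was called under RLE or upper-quartile scaling, without a filter, in DESeq2, with the replicate block, without mitochondrial and rRNA genes, or with any 1 library left out. The members' median log2 fold change stayed at 0.12 to 0.17 when 1 library was left out (complex I 0.12 to 0.18, complex II 0.070 without YFP- replicate 4 to 0.20 without YFP- replicate 3, complex III 0.056 without YFP+ replicate 3 to 0.14 without YFP+ replicate 4) and at 0.13 under the other settings of that list, with 69 to 74 members positive, while the median of all genes stayed at -0.02 to 0.01. The number at an unadjusted p under 0.05, 11 in the main test, was 4 without YFP+ replicate 2, 5 without YFP+ replicate 3, 6 without YFP- replicate 3, and 7 without YFP+ replicate 4 or without a filter. Outside the main test, the share of all genes at that threshold was not counted.

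The background moved more. Lower and higher genes numbered 547 and 150 in the main test, 934 and 309 without a filter, 822 and 272 in DESeq2, and 1283 and 597 with the replicate block. Leaving out 1 library gave 339 to 521 lower and 88 to 156 higher genes, with 339 and 88 without YFP+ replicate 3, and 96 higher without YFP- replicate 3. With the block, the added settings gave 1236 lower and 518 higher (DESeq2), 1250 and 622 (RLE), 1261 and 628 (upper quartile), and 1238 and 651 (no mitochondrial or ribosomal RNA), with 0 members called. With the block and without both libraries of a number, the counts were 1126 lower and 455 higher (number 1), 1050 and 500 (number 2), 851 and 331 (number 3), and 1017 and 431 (number 4). Members were called in 2 of these, and the cause was not tested. Without number 1, 2 passed, Atp5e at 0.69 on the log2 scale (edgeR adjusted p 0.0328) and Ndufb11 at 0.44 (edgeR adjusted p 0.0326), and the median was 0.17 over all members and 0.20 for complex I. Without number 4, 2 passed, Ndufa5 at 0.52 (edgeR adjusted p 0.0324) and Ndufv2 at 0.37 (edgeR adjusted p 0.0446), and the median for complex III was 0.13. The smallest adjusted p of a member over all settings ran from 0.0324 to 0.327. Fold changes of members at low levels were less precise: in the fit without the block, 62 of 87 intervals lay within 1.5-fold, and these included all 33 members with a mean above 20 CPM.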
